A study of Rattus norvegicus with 8 samples.

Results

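The genes described here encode the T-cell receptor complex and its nearest partners, taken around Cd3e. They were chosen by the difference in the Cd3e signal between the feeds of this study, and the other genes were added for their known roles. The list holds 10 genes: the CD3 chains Cd3e, Cd3d, Cd3g and Cd247, the surface proteins Cd2 and Cd5, the coreceptors Cd4 and Cd8a, and the kinases Lck and Zap70. Every non-control probe whose RefSeq accession maps to one of these symbols was used. That gave 9 genes with 1 probe each, of 12206 genes named on the array, and no probe was named for Lck, which was not analysed here. RNA came from the hippocampus of 8 male Wistar rats, 1 rat per array, on 1-colour Agilent rat arrays. The 4 CCH rats ate a standard feed (CE-2) with 0.1% coral calcium hydride (CCH) powder, a mineral feed additive, and the 4 control rats ate the standard feed alone. The rats were assigned at 6 weeks of age and killed at 8 weeks. No genetic change, injury or drug belongs to these groups by title and treatment label, although the free-text descriptions speak of a lesion model, which contradicts both.

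The T-cell receptor recognises peptides held by MHC molecules and cannot signal by itself. It depends on the CD3 epsilon, delta, gamma and zeta chains, whose cytoplasmic tails carry tyrosine motifs that the kinase LCK phosphorylates and to which the kinase ZAP-70 then binds. CD4 and CD8 bring LCK to the receptor, CD2 is an adhesion receptor and CD5 dampens the signal. Healthy brain tissue holds few T cells, found mostly in the meninges, the choroid plexus and around vessels. CD4 in the rat is carried by macrophages as well, and CD3 zeta has been described in some rodent neurons.

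The 4 CCH arrays shared slide 2 and scan 2, and the 4 control arrays slide 1 and scan 1. Feed therefore cannot be told apart from slide or scan. In both groups the replicate number was also the position of the array on its slide. The 75th percentile of the processed signal lay between 642 and 882 on the CCH arrays and between 563 and 699.8 on the control arrays. The median local background was 34.5 to 35 on the CCH arrays and 32 to 34 on the control arrays. Levels below are a probe's processed signal as a percentage of its array's 75th percentile, and differences are CCH minus control on the log2 scale. Of 23 probes for hippocampal neuron markers 22 were well above background on every array. Over all 31617 tested probes the median log2 difference was 0.03. Precision is limited by the number of rats. In this bulk tissue, fewer cells of a type and less RNA per cell cannot be told apart.

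Among the 9 probes, those of Cd3e, Cd3d, Cd3g and Zap70 were well above background on all 8 arrays, and that of Cd2 on 7. Cd4 and Cd8a were well above background on 2 arrays each, Cd5 on 1 and Cd247 on none. Those 4 failed the filter, which asked for 4 of the 8 arrays in any group, so 5 probes were tested. Limma (adjusted p under 0.05) called 1 of these 5, Cd3e, higher in CCH. It called 0.174% of all tested probes, 0.0759% as higher in CCH and 0.098% as lower. Cd3e was chosen because of that call, so nothing is read from the count. Of the 5 differences 2 were above 0 and 3 below, with a median of -0.04. CCH arrays carried 4 to 6 of the 9 probes well above background, and control arrays 5 to 7.

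**Figure D1:**
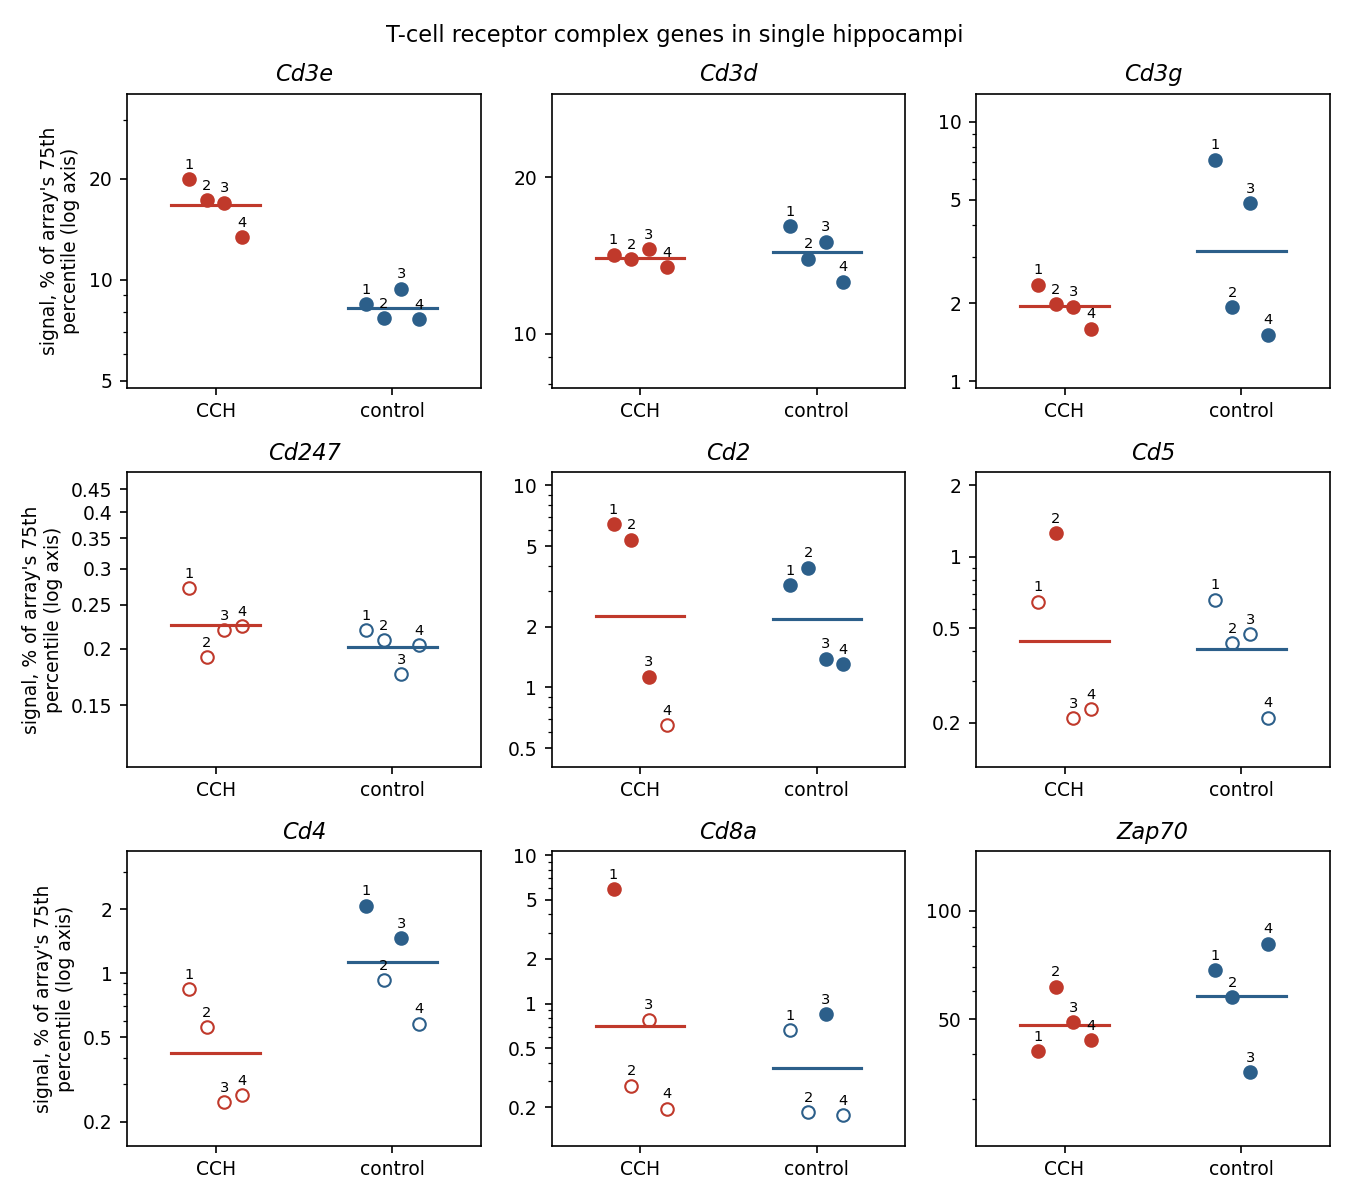
Signal of each of the 9 probes on every array, as a percentage of the array's 75th percentile on a log axis, for CCH and control rats. Numbers are replicates, filled points are well above background, open points are not, and lines are means of log values. Cd3e separates the groups by the choice of the gene, whereas Cd2 spans 0.648% to 6.44% within CCH and Cd3g 1.51% to 7.15% within control.

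Cd3e, Cd3d and Cd3g lie next to each other on rat chromosome 8, and their promoters are shown because Cd3e was called and its neighbours Cd3d and Cd3g were not. The sequences are RefSeq's for the GRCr8 assembly, 250 bases before to 50 after each gene's start, and capitals mark the ETS core GGAA on either strand. ETS proteins are a family of transcription factors with several members in lymphocytes. The Cd3e window is chr8:54211721-54212020 (minus strand), the Cd3d window chr8:54185269-54185568 (plus strand) and the Cd3g window chr8:54183869-54184168 (minus strand).
Cd3e: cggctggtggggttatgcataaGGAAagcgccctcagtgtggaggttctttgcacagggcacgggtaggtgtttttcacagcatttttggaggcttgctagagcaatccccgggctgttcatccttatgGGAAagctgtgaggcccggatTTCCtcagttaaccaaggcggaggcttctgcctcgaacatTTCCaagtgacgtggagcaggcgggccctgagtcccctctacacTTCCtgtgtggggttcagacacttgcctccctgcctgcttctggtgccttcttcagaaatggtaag
Cd3d: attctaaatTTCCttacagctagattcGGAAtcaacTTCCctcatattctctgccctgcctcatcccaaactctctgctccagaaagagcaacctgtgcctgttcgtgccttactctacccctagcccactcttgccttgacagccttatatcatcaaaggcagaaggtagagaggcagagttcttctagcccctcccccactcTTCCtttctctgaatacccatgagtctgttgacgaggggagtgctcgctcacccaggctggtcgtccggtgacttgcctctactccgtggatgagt
Cd3g: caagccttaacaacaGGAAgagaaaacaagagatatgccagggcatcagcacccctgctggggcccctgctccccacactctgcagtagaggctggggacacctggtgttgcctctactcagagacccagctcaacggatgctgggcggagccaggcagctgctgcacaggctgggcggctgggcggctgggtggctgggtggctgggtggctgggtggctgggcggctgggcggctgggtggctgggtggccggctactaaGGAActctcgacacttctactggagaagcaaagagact
The core GGAA matched 5 times in the Cd3e window, 4 times in that of Cd3d and 2 times in that of Cd3g. It occurs in 95.8% of 33469 RefSeq promoters of the same length, with a median of 3 matches, so its presence sets none of them apart. The E-box CANNTG matched 2 times each for Cd3e and Cd3g and 0 times for Cd3d, against 72.1% of all promoters with a match. The letters TATAAA (14.2% of promoters), TGTGGT (17.3%) and AGATAA (11.6%), searched on both strands, had 0 matches in the 3 windows. Bases G and C made up 55.3% of the Cd3e window, 51.7% of the Cd3d window and 63.7% of the Cd3g window, against a median of 51.7% over all promoters. Windows of Cd3d and Cd3g were 1100 bases apart, and 26152 bases separated those of Cd3e and Cd3d.

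Cd3e encodes CD3 epsilon, the chain that pairs with both CD3 delta and CD3 gamma. Its probe A_44_P103225 stood at 19.98%, 17.3%, 17.0% and 13.4% in CCH replicates 1 to 4, against 8.46%, 7.66%, 9.39% and 7.62% in control replicates 1 to 4. The lowest CCH rat lay above the highest control rat, as in 6.59% of all tested probes, while 4.7% had every CCH rat below every control rat. The means were 16.9% ± 2.72 in CCH and 8.28% ± 0.833 in control (SD, n = 4 each). The difference was 1.02 ± 0.14 on the log2 scale (SE), a 2.03-fold higher level in CCH. This contrast chose the gene, so these values are a description and carry no test. On its own array the probe was brighter than 51.9% to 56.5% of all probes in CCH and 45.02% to 47.2% in control.

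The separation was also present before scaling, but in the same readings that chose the gene, so it adds no support. The CCH arrays also tended to be brighter as a whole. Their 75th percentiles were 642 to 882, against 563 to 699.8 on the control arrays. The median brightness of the Cd3e spot was 219, 169.5, 153 and 124 scanner units in CCH replicates 1 to 4, over local backgrounds of 33.5 to 37. In control replicates 1 to 4 it was 98.5, 81.5, 96 and 84, over local backgrounds of 32 to 36. The background around the spot therefore made up a larger part of the reading on the control arrays. With normexp background correction, which adds an offset of 50 and draws dim spots together, the log2 difference was 0.50. Within 5 rows and 5 columns of this spot, the other 95 tested probes had a median log2 difference of 0.03 and ran from -1.08 to 0.81. No spot of this probe carried an outlier mark, and it had 1 spot per array.

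**Figure D2:**
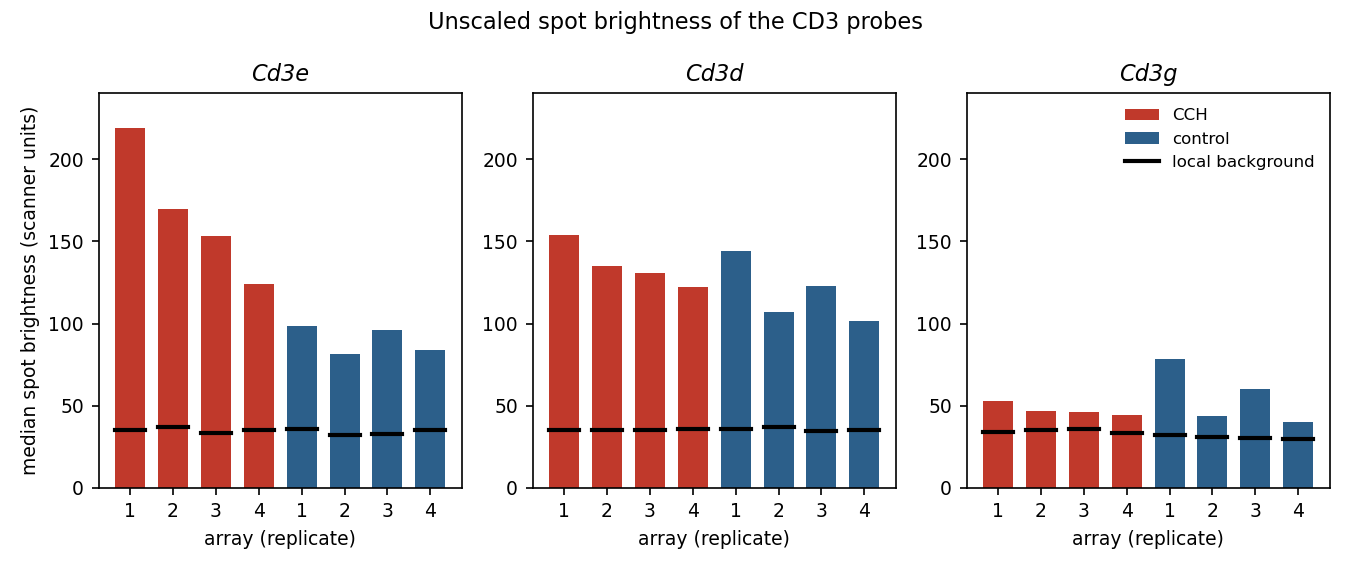
Median brightness of the Cd3e, Cd3d and Cd3g spots in scanner units before scaling, with 1 bar per array, CCH left of control. Black lines are the local background. The Cd3e bars run from 124 to 219 in CCH and from 81.5 to 98.5 in control, while the Cd3d and Cd3g bars of the groups overlap.

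The difference in Cd3e lay between 0.50 and 1.15 under 21 alternatives, which changed the processing or left out 1 array. It was past limma's threshold under 9 of them. All were above 0, but the choice of Cd3e from this contrast largely fixed that sign in advance. Without any 1 array other than CCH replicate 1 the call ended, with differences from 0.98 to 1.13. Without CCH replicate 1, the array with the highest Cd3e level, the difference was 0.93 and the call held.

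**Figure D3:**
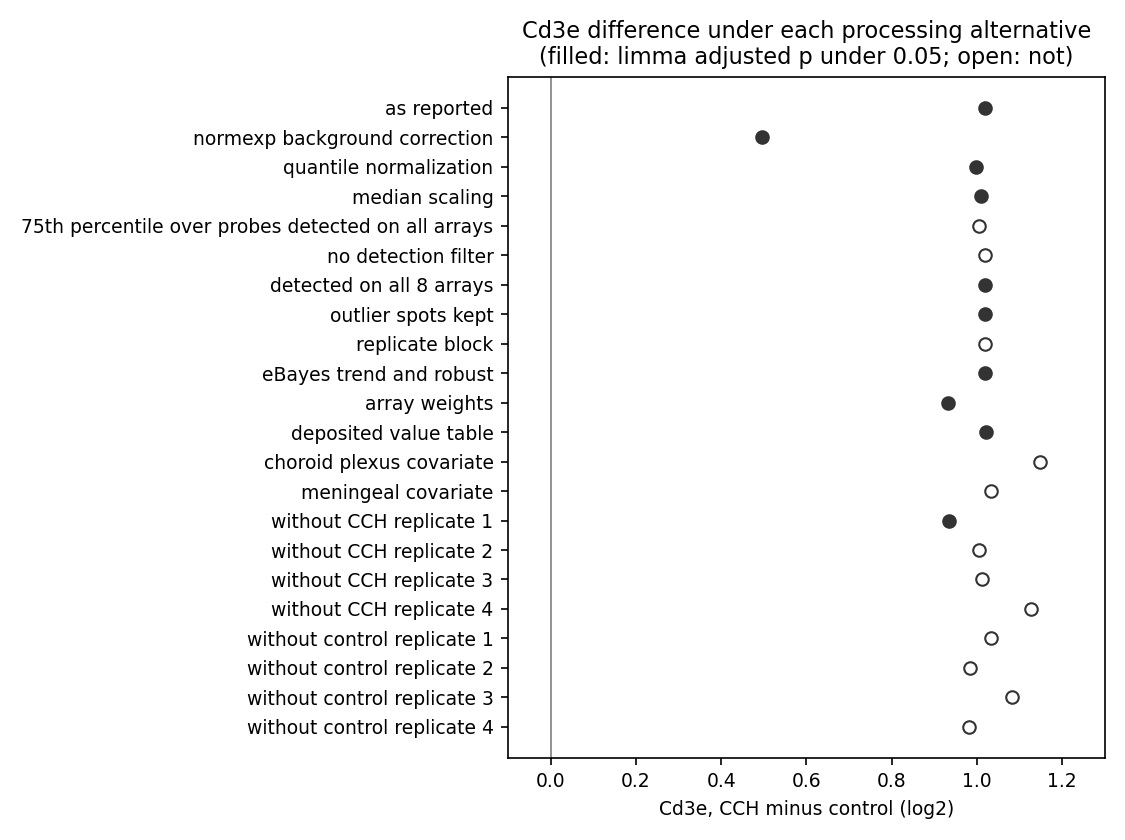
Log2 difference of Cd3e, CCH minus control, as reported and under each of 21 alternatives. Filled points have a limma adjusted p under 0.05 and open points do not. Every point lies above 0, which the choice of the gene largely fixed. The difference is 0.50 with normexp background correction and between 0.93 and 1.15 under the other alternatives.

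Cd3d encodes CD3 delta, a partner of CD3 epsilon in the complex. The probe A_42_P579174 stood at 14.2%, 13.9%, 14.5% and 13.4% in CCH replicates 1 to 4 and at 16.1%, 13.9%, 15.04% and 12.6% in control replicates 1 to 4. The CCH values lay inside the range of the control values. The log2 difference was -0.04 ± 0.10 (SE), with a 95% interval from -0.26 to 0.19, and was not called (limma adjusted p = 0.900). This was among the steadier probes of its brightness: its spread within groups was larger than that of 12.6% of the 1000 tested probes nearest in level. The spread of Cd3e was larger than that of 48.5% of its own such set.

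Cd3g encodes CD3 gamma, the other partner of CD3 epsilon. Its probe A_42_P598602 was dim and stood at 2.36%, 1.98%, 1.94% and 1.60% in CCH replicates 1 to 4, against 7.15%, 1.93%, 4.85% and 1.51% in control replicates 1 to 4. Control replicates 1 and 3 were high, and control replicate 2 lay within the CCH range and control replicate 4 below it. The log2 difference was -0.70 ± 0.47 (SE), with a 95% interval from -1.77 to 0.37, and was not called (limma adjusted p = 0.528). It was -0.31 without control replicate 1 and -1.06 without control replicate 4. Its spread within groups was larger than that of 94.2% of the 1000 probes nearest in level.

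The high control replicates 1 and 3 were not particular to Cd3g. They were also the highest arrays for Cd3d, at 16.1% and 15.04%, and for several gene lists. The mean centred log2 signal there was 0.13 and 0.07 for the receptor partners, 2.11 and 1.75 for choroid plexus and 0.44 and 0.25 for endothelial markers. They were not both the highest for the cytotoxic, B-cell and neuronal lists. The mean centred log2 signal of the meningeal and fibroblast markers was 0.18, 0.44, 0.02 and -0.91 in CCH replicates 1 to 4, against 1.91, -1.64, 1.28 and -1.28 in control replicates 1 to 4. Control replicates 1 and 3 were thus the highest arrays for these markers too. All 17 meningeal probes were well above background on every array. With that mean as a covariate, an alternative chosen after seeing the data, the difference in Cd3g was -0.63 (limma adjusted p = 0.122). The macrophage and microglia markers were also highest in control replicates 1 and 3, at 0.45 and 0.22, and so were the blood cell markers, at 0.56 and 0.38. The part of these cells in the Cd3g signal was not tested.

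Cd247 encodes the zeta chain, which carries most of the tyrosine motifs of the complex. The probe A_44_P463805 was not well above background on any array. Its readings ran from 0.191% to 0.272% in CCH and from 0.176% to 0.220% in control, so no fold is given. The zeta chain was thus the 1 CD3 chain not detected on these arrays.

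Cd2 encodes an adhesion receptor of T and natural killer cells. Its probe A_44_P411954 stood at 6.44%, 5.40%, 1.13% and 0.648% in CCH replicates 1 to 4, the last not well above background, and at 3.21%, 3.92%, 1.39% and 1.299% in control replicates 1 to 4. In each group the rats numbered 1 and 2 were high and those numbered 3 and 4 low, and all controls lay between the 2 high and the 2 low CCH rats. These numbers are also positions on the slide, so rat and position cannot be told apart here. The highest control rat exceeded the lowest 3.01-fold, and CCH spread more widely. This spread within groups was larger than that of 98.7% of the 1000 tested probes nearest in level. The log2 difference was 0.04 ± 0.78 (SE), with a 95% interval from -1.74 to 1.82 (limma adjusted p = 0.987), and its sign turned without CCH replicate 1 (-0.46), CCH replicate 2 (-0.38), control replicate 3 (-0.17) or control replicate 4 (-0.21). CCH replicate 1 was the highest array for Cd3e and for Cd2, whereas control replicate 3, the highest control for Cd3e, was low for Cd2.

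Cd5 encodes a surface protein that restrains receptor signalling. The probe A_44_P409803 read 0.647%, 1.26%, 0.209% and 0.229% in CCH replicates 1 to 4, of which replicate 2 alone was well above background. On the control arrays it read 0.658%, 0.433%, 0.472% and 0.210%, not well above background on any, so no fold is given.

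The coreceptors were near the background on most arrays. Cd4, the coreceptor of helper T cells, read 0.845%, 0.560%, 0.247% and 0.268% on the CCH arrays, none well above background. On the control arrays it read 2.08%, 0.927%, 1.47% and 0.579%, and replicates 1 and 3 were well above background. Control replicates 2 and 4 were not, so undetected readings stand on both sides and no fold is given. The mean log2 signals as measured were -7.89 in CCH and -6.47 in control. The probe was not tested, and the control arrays on which it was detected were those with the high meningeal, macrophage and blood cell markers.

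Cd8a, the alpha chain of the coreceptor of cytotoxic T cells, read 5.88%, 0.280%, 0.782% and 0.196% in CCH replicates 1 to 4. On the control arrays it read 0.664%, 0.185%, 0.847% and 0.177%. CCH replicate 1 was high, control replicate 3 was just detected, and the other 6 arrays were not well above background. Since the probe was not well above background on most arrays, no fold is given and no test was made. Some cytotoxic granule genes were detected on that array as well, and others were not. Prf1 (perforin) read 1.89%, 0.563%, 0.285% and 0.479% in CCH replicates 1 to 4, against 1.46%, 0.821%, 1.60% and 0.790% in control replicates 1 to 4. It was well above background on CCH replicate 1 and on control replicates 1 and 3, as was the granzyme gene Gzma. The granzyme gene Gzmk was so on CCH replicate 1 and control replicate 1. The natural killer receptor gene Ncr1 was so on CCH replicate 1 alone, at 0.838%. Cst7 and Ncr3, of the same list, were detected on some arrays but not on CCH replicate 1. The granzyme gene Gzmb was not well above background on any array, nor were the natural killer receptor genes Klrd1 and Klrk1, the costimulator gene Cd226 or the interferon gamma gene Ifng, while Gzmm and the granule gene Nkg7 were on all 8. On the controls Prf1, Gzma and Gzmk therefore came without a high Cd8a reading. Cd8b, the beta chain of the same coreceptor, was detected on all 8 arrays and read 3.22%, 2.44%, 2.24% and 2.77% in CCH, against 3.37%, 2.10%, 2.49% and 2.01% in control, without the peak of Cd8a in CCH replicate 1. Cd8b and these cytotoxic genes were singled out after their values were seen.

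Zap70 encodes the kinase that binds phosphorylated CD3 chains. Its probe A_44_P994692 stood at 40.7%, 61.6%, 49.1% and 43.8% in CCH replicates 1 to 4 and at 68.4%, 57.5%, 35.7% and 81.1% in control replicates 1 to 4. The lowest and the highest values were both controls, and every CCH rat lay between them. The log2 difference was -0.27 ± 0.25 (SE), with a 95% interval from -0.85 to 0.31 (limma adjusted p = 0.668). It was -0.50 without control replicate 3 and -0.11 without control replicate 4. Its spread within groups was larger than that of 93.4% of the 1000 probes nearest in level. Over all 21 alternatives (20 for Cd2), Cd3d, Cd3g, Cd2 and Zap70 gave 0 calls, with adjusted p between 0.112 and 0.993.

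Of 37 listed receptor partners and signalling genes 24 had a probe, and 27 probes of 21 genes were tested. Limma called 0 of them, 8 were higher and 19 lower in CCH, and the median log2 difference was -0.06. At an unadjusted p under 0.05, which 15.4% of all tested probes reached, 0 were higher and 4 of 27 lower, a share close to that of all probes. The probes with the smallest p were those of Nfatc3, a calcium-driven transcription factor, at -0.51 ± 0.12 (SE, limma adjusted p = 0.101), Ptpn22, a phosphatase that restrains LCK, at -0.79 ± 0.28 (adjusted p = 0.243), and Vav1, an exchange factor, at -0.43 ± 0.17 (adjusted p = 0.280). Lat, the adaptor that ZAP-70 phosphorylates, was at 0.27 ± 0.12 (adjusted p = 0.327). Nfatc3 was at -0.30 and -0.09 on its other tested probes, and its first probe passed the threshold under 3 alternatives, with normexp, with array weights and without CCH replicate 1.

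Surface and lineage genes of T cells were also uncalled by limma. Of 40 listed genes 29 had a probe, and 16 probes of 13 genes were tested, of which 6 were higher and 10 lower in CCH, with a median log2 difference of -0.05. At an unadjusted p under 0.05, 0 of the 16 passed in either direction, against 15.4% of all tested probes. Il7r, the receptor of the survival cytokine interleukin-7, was at -0.38, -0.24 and -0.17 on its 3 probes. Il2rb, a chain of the interleukin-2 receptor, was at -0.61 ± 0.37, Cd48, a ligand of CD2, at -0.37 ± 0.26 and Cd52 at 0.29 ± 0.25 (SE; limma adjusted p of 0.484, 0.551 and 0.640). Of the 35 probes of this list 14 were detected on all arrays and 13 on none. Those not detected on any array included the costimulator Cd28, the activation genes Cd69 and Cd40lg, the homing receptor Ccr7 and the lineage factors Gata3, Tbx21 and Foxp3. Trat1, an adaptor tied to the receptor, was not detected on any array either.

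Over the receptor-partner, surface and cytotoxic lists together, 44 to 51 of 84 probes were well above background on CCH arrays and 45 to 57 on control arrays. CCH replicate 1 had 51, against 44 to 47 for the other CCH rats, and control replicates 1 and 3 had 54 and 57, against 49 and 45 for control replicates 2 and 4. Of all non-control spots, 78.6%, 77.6%, 77.2% and 76.3% were well above background on CCH replicates 1 to 4. On control replicates 1 to 4 it was 76.7%, 77.5%, 79.9% and 78.0%. Within each group, the mean centred log2 signal of the surface list was also highest on CCH replicate 1 and on control replicates 1 and 3. It was 0.09, 0.02, -0.14 and -0.16 in CCH replicates 1 to 4 and 0.26, -0.13, 0.29 and -0.23 in control replicates 1 to 4. Within each group Cd3e ordered the arrays as the surface list did. From high to low the order was CCH replicates 1, 2, 3 and 4 and control replicates 3, 1, 2 and 4. The CCH order was also that of slide position and of the share of all spots well above background. The B-cell and endothelial lists had the same CCH order, so it was not particular to T-cell genes. None of these had the control order. Between the groups Cd3e and the surface list differed, since for Cd3e every CCH rat exceeded control replicates 1 and 3.

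**Figure D4:**
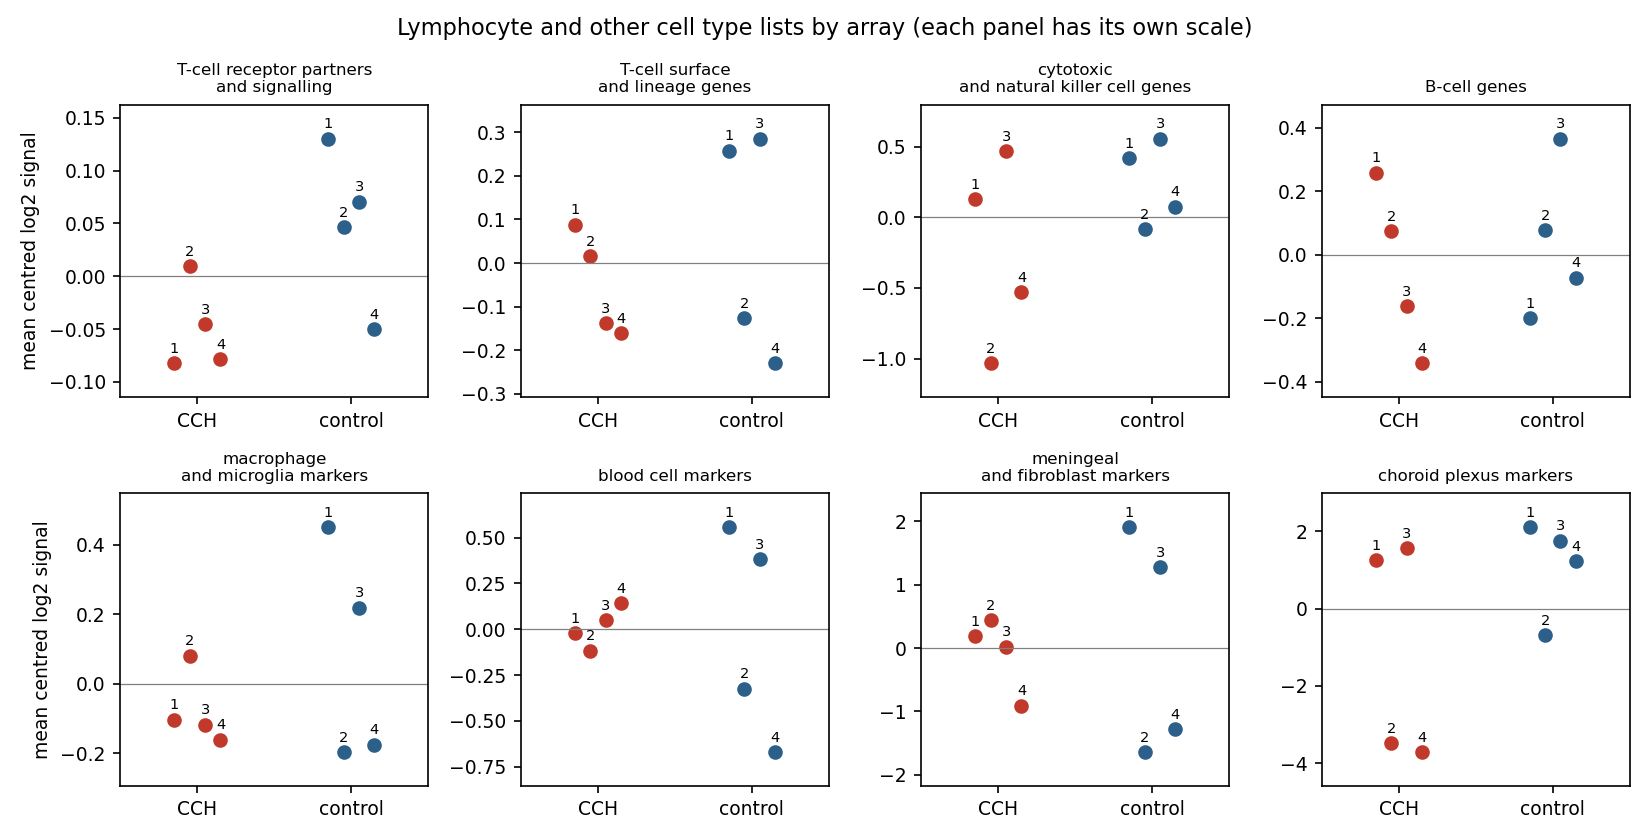
Mean centred log2 signal of the tested probes of 8 gene lists on each array, CCH left of control, numbered by replicate, with a separate scale per panel. Control replicates 1 and 3 are the highest arrays for the receptor-partner, surface, macrophage, blood, meningeal and choroid plexus lists. CCH replicates 2 and 4 are the lowest for choroid plexus markers.

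Cytotoxic and natural killer cell genes were thinly measured, with 5 of 16 probes tested. Limma called 0 of them, 0 passed an unadjusted p under 0.05 (15.4% of all tested probes did), and all 5 were lower in CCH. The median log2 difference was -0.36, but -0.011 without CCH replicate 2 and -0.52 without control replicate 4. Xcl1, a chemokine of cytotoxic lymphocytes, read 10.4%, 0.720%, 23.6% and 0.698% in CCH replicates 1 to 4, against 13.2%, 1.501%, 21.7% and 16.8% in control replicates 1 to 4. It was not well above background on CCH replicates 2 and 4, so the difference of -1.47 ± 1.34 (SE, limma adjusted p = 0.659) rests in part on undetected readings, and it ran from -2.41 without CCH replicate 3 to -0.72 without CCH replicate 4. The arrays low for Xcl1 were those low for choroid plexus markers, whose mean was 1.25, -3.49, 1.56 and -3.71 in CCH and 2.11, -0.70, 1.75 and 1.23 in control. With that mean as a covariate the Xcl1 difference was 0.64 (limma adjusted p = 0.616). The choroid plexus probes were themselves lower in CCH, so in that fit tissue content cannot be told apart from feed or slide. The part of choroid plexus in the Xcl1 signal was not tested. The chemokine gene Ccl5 was at -0.42 ± 0.45, the granzyme gene Gzmm at -0.13 ± 0.14 and the natural killer receptor gene Ncr3 at -0.36 ± 0.59 (SE; adjusted p of 0.715, 0.719 and 0.824). Of 8 tested B-cell probes 2 were higher and 6 lower, with a median of -0.08, 0 calls by limma and 1 of 8 lower at an unadjusted p under 0.05, near the 15.4% of all tested probes. The B-cell adaptor gene Blnk was at -0.38 ± 0.12 (SE, adjusted p = 0.198), Pou2af1 at 0.18 and 0.54, Cd22 at -0.66 and -0.06 and Cd37 at -0.16.

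Among lists of other cells, macrophage and microglia markers had 18 of 26 tested probes lower in CCH and a median of -0.20, which was -0.0013 without control replicate 1. At an unadjusted p under 0.05, 4 of the 26 were lower and 0 higher, near the 15.4% of all tested probes. They held 1 call, the Fc receptor gene Fcgr2b, at -1.23 ± 0.16 (SE, limma adjusted p = 0.0399) and lower in 4 of 4 CCH rats than in any control. Of all tested probes, limma called 0.098% lower in CCH, and 4.7% had every CCH rat below every control rat. Blood cell markers had 5 higher and 3 lower (median 0.13), meningeal markers 6 higher and 11 lower (-0.16), and choroid plexus markers 0 higher and 15 lower (-2.17). Hippocampal neuron markers had 15 higher and 7 lower (0.13), and endothelial and pericyte markers 9 higher and 6 lower (0.03). Limma called 0 probes of these 5 lists, and 1 neuronal probe passed an unadjusted p under 0.05, against 15.4% of all tested probes. Leaving out 1 array turned the sign of 3 of these medians. The blood cell median was -0.058 without control replicate 4 and 0.32 without control replicate 3. The meningeal median was 0.18 without control replicate 1 and -0.59 without control replicate 2, and the endothelial median was 0.16 without control replicate 1 and -0.11 without control replicate 4. The Cd3e difference was 1.15 with the choroid plexus mean as a covariate and 1.03 with the meningeal mean, while its call ended with either.

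The genes beside the CD3 genes on the chromosome, in the order of the GRCr8 gene table, are given as a description. Cd3e was chosen by its difference and they were not, so nothing is read from their differences being smaller than that of Cd3e. The 10 nearest named genes with a probe, 5 on each side, had 16 probes, 14 of them tested. Limma called 0 of these, with log2 differences from -0.57 to 0.47, and the smallest adjusted p was 0.149. The groups did not overlap for 4 of the 14, against 11.3% of all tested probes. Those were 3 of 4 probes of the histone methyltransferase gene Kmt2a, lower in CCH (-0.47, -0.37 and -0.29), and the protease gene Tmprss4, higher (0.47). Mpzl2, the gene next to Cd3e, was at -0.57, -0.36 and -0.21 on its 3 probes with SEs of 0.976 to 1.11.

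**Figure D5:**
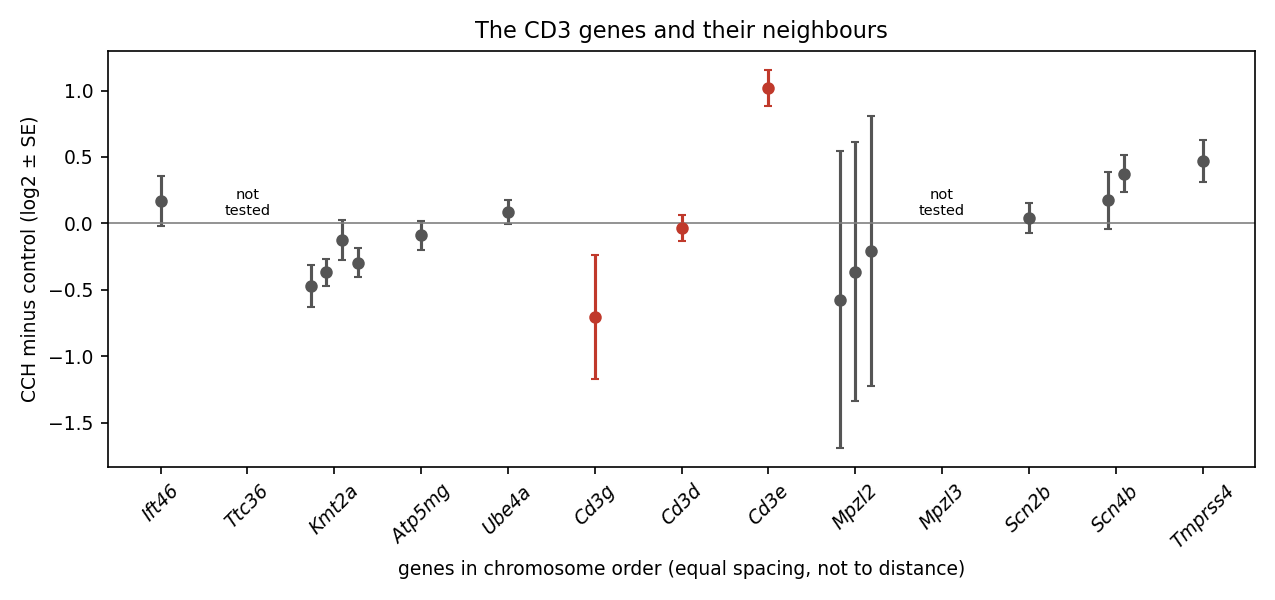
Log2 difference with its SE for Cd3g, Cd3d and Cd3e (red) and for the 5 nearest named genes with a probe on each side (grey), in chromosome order at equal spacing, with 1 point per tested probe. Cd3e, chosen by its difference, is at 1.02, and the tested neighbours lie between -0.57 and 0.47.

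The named genes whose course over the 8 arrays was nearest to that of Cd3e were not T-cell genes. Likeness was the root mean square difference of the centred log2 values, over 8 arrays. It was 0.144 for Ndufc2, a respiratory complex I subunit gene, 0.183 for Ppp1r14bl, 0.192 for the pancreatic lipase gene Pnlip, 0.194 for Tpt1 and 0.209 for the olfactory receptor gene Or10ak14. Their own log2 differences were 0.86, 0.82, 0.93, 0.74 and 0.77. They share with Cd3e the difference between the groups that picked it, so this order is a description. With normexp the differences of Ppp1r14bl and Or10ak14 were -0.06 and -0.11.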

How the data were processed

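Per the file headers and the submitters' processing notes, the authors extracted 1-colour (Cy3) spot intensity with Agilent Feature Extraction 9.5. What they deposited as processed signal is an intensity on a linear scale, background-subtracted and not normalized between arrays, and the deposited value table equals it within a relative difference of 0.00498. Each array held 45018 spots, of which 43379 non-control spots covered 41012 probes. RefSeq accessions named 15184 of them through a GRCr8 gene table, while the array grid names rn4, so no probe coordinates are given. Levels are log2 of the processed signal over the 75th percentile of its array, averaged over spots, with outlier-marked spots left out afterwards. A probe was tested if most of its spots were well above background on at least 4 of 8 arrays, with at least 3 values per group. Limma 3.58.1 in R 4.3.3 (lmFit, eBayes, two-sided) compared CCH with control, and p-values of the 31617 tested probes were adjusted together (Benjamini-Hochberg), with 0.05 as the threshold. The code was tested on simulated data. Groups came from the titles. Nothing says whether cages or extractions were shared, so p-values measure the spread between these rats.

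The member genes and lists were chosen with earlier results of these data known. Named were the members, the 4 genes of each lymphocyte list with the smallest p and any called list gene, the 5 genes most like Cd3e and the 5 neighbours on each side. Other lists are given by counts and by their mean per array, centred per probe. The files hold no mean spot signal, so normexp used the median signal. A slide or scan block was not run because it equals the feed.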

Additional observations from a re-analysis of the deposited data

Results flagged for a closer look

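Of 94 groups of 4 arrays checked, 4 held an array far from the other 3 by Dixon's 95% criterion, where chance gives about 1 in 20. None was a probe of the receptor complex. Vav1 stood at a log2 scaled signal of -3.50 in CCH replicate 2, against -3.82 to -3.77 in the other CCH rats. The Il7r probe A_44_P100584 stood at -6.85 in CCH replicate 3, against -6.23 to -6.14 in the other CCH rats. Cd37 stood at -4.07 in CCH replicate 1, against -4.87 to -4.77 in the other CCH rats. Or10ak14 stood at -5.90 in control replicate 1, against -6.19 to -6.16 in the other controls.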

How the results depend on the processing

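The Cd3e difference ranged from 0.93 to 1.13 with 1 array left out. Its call ended, at the difference given, with the 75th percentile taken from the probes that every array detected (1.01), without the filter on dim probes (1.02), a replicate block (1.02, adjusted p = 0.172), the choroid plexus covariate (1.15) and the meningeal covariate (1.03), so that 0 member probes were called under these 5. With 1 array left out, 0 to 1 member probes were called and 1 to 3 were higher. Member probes higher in CCH numbered 5 of 9 without the filter and 1 with detection on all 8 arrays or with array weights. All tested probes called were 55 as reported, 246 with normexp, 29 without the filter, 209 with detection on all 8 arrays, 0 with the replicate block, 220 with trend and robust settings, 1293 with array weights, 1 with the choroid plexus covariate, 21 with the meningeal covariate and 0 to 701 with 1 array left out (701 without CCH replicate 1). Same-numbered rats of the groups deviated together with correlations of 0.145, 0.0797, -0.00519 and 0.246, and 1 of 4 matched its own number best. The numbers were therefore not taken to pair the rats. They equal positions on the slide, so the replicate block is also a block of slide position.

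Other T-cell genes had 1 call with normexp and with array weights and 0 to 1 with 1 array left out, and their median was -0.17 with normexp and -0.11 to -0.018 with 1 array left out. The B-cell median ran from -0.19 to 0.0036 and that of choroid plexus markers from -3.02 to -1.29 with 1 array left out. The microglial call ended (0 calls) without the filter, with the replicate block and with either covariate, and was 0 to 1 with 1 array left out. Medians moved to 0.074 for choroid plexus markers with their own mean as covariate, and for neuronal markers to 0.025 with normexp and 0.030 with the choroid plexus covariate. Signs turned for Cd3d with the choroid plexus covariate (0.011) and between -0.10 and 0.020 with 1 array left out, for Cd2 with array weights (-0.26) and between -0.46 and 0.64 with 1 array left out, for Xcl1 with the choroid plexus covariate (0.64), and with normexp for Pou2af1 (-0.11 and -0.085), Ppp1r14bl (-0.056) and Or10ak14 (-0.11). With 1 array left out, an Il7r probe ran from -0.30 to 0.00051, Ncr3 from -0.70 to 0.062 and a Cd22 probe from -0.63 to 0.29. The cause of these moves was not tested. Slide and scan blocks were not run. Cd247 was not well above background on any array, Cd5 was so on 1, and Cd4 and Cd8a on 2 each. Cd8a reached 5.88% in CCH replicate 1.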
